A study of Mus musculus with 6 samples.

Results

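The 10 genes described here are Cd8a, Cd8b1, Cd3e, Cd3d, Cd3g, Gzma, Gzmb, Gzmk, Prf1 and Nkg7, the surface receptors and killing proteins of cytotoxic T cells. They were taken by symbol from a table of raw read counts, in which 10 of 26608 rows were members. The table holds liver RNA of 6 mice aged 6 weeks, 3 named LiK and 3 named LiKM by genotype, names that the labels do not spell out. What the published study is known to have used, beyond the labels, is Cre recombinase under the albumin promoter in both genotypes, which in LiKM mice also removes Mdm2, the ubiquitin ligase that restrains p53. The albumin promoter is active in hepatocytes and their fetal precursors and is not known as a lymphocyte promoter. The labels give no sex, no litter and no day of collection.

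A cytotoxic T cell recognises a peptide on a target cell through its T cell receptor, which signals through the CD3 chains with the CD8 co-receptor at its side. It then releases granules in which perforin opens the target membrane and granzymes enter to cleave proteins of the target. Natural killer cells use the same granules without a T cell receptor, so the granule genes are shared by both cell types, whereas CD3 and the CD8 beta chain mark T cells. In healthy liver such lymphocytes lie mainly in the sinusoids and portal tracts and give a small part of the tissue's RNA. RNA of whole liver cannot tell more cells of a type from more RNA per cell.

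The libraries held between 19909993 and 24874343 counts, and 16847 to 17472 genes had at least 1 count. Mdm2 lay between 28.6 and 29.0 CPM (counts scaled to the library size after TMM normalization) in LiK and between 60.5 and 125 CPM in LiKM, with LiKM 3 the lowest of its genotype. A count over the whole gene does not show whether some of its exons are deleted. The hepatocyte marker Alb averaged 90851 ± 10591 CPM over the LiK mice and 97163 ± 5923 CPM over the LiKM mice (SD, n = 3 each), and edgeR called 0 of 10 hepatocyte markers, with 3 lower at an unadjusted p under 0.05, while DESeq2 called 1 lower. A gene is called here when its Benjamini-Hochberg adjusted p from the quasi-likelihood test of edgeR is under 0.05. By that measure 5.92% of all genes tested were called, and 5.11% were called higher in LiKM. The share of all genes with an unadjusted p under 0.05 is not given here, so counts at that level have no such comparison.

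Transcripts of cytotoxic T cells were close to absent in the LiK livers and present at a low level in all LiKM livers. The 10 genes together gave 33, 29 and 28 counts in LiK 1, LiK 2 and LiK 3, and 215, 329 and 275 counts in LiKM 1, LiKM 2 and LiKM 3. That is 1.40 ± 0.226 CPM in LiK and 12.8 ± 2.45 CPM in LiKM (SD, n = 3 each). Each of the 10 genes had its lowest LiKM library above its highest LiK library, which held for 17.8% of all genes tested. In the edgeR test 9 of the 10 rose and Gzma was not called, beside the 5.11% of all genes that were called higher. All 10 passed the expression filter through their LiKM counts alone, since no LiK library reached the count of 10 that the filter asks for at the median library size. A gene that enters the test that way has to be higher in LiKM, so the number of members called says little by itself, and the counts of each mouse follow.

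**Figure D1:**
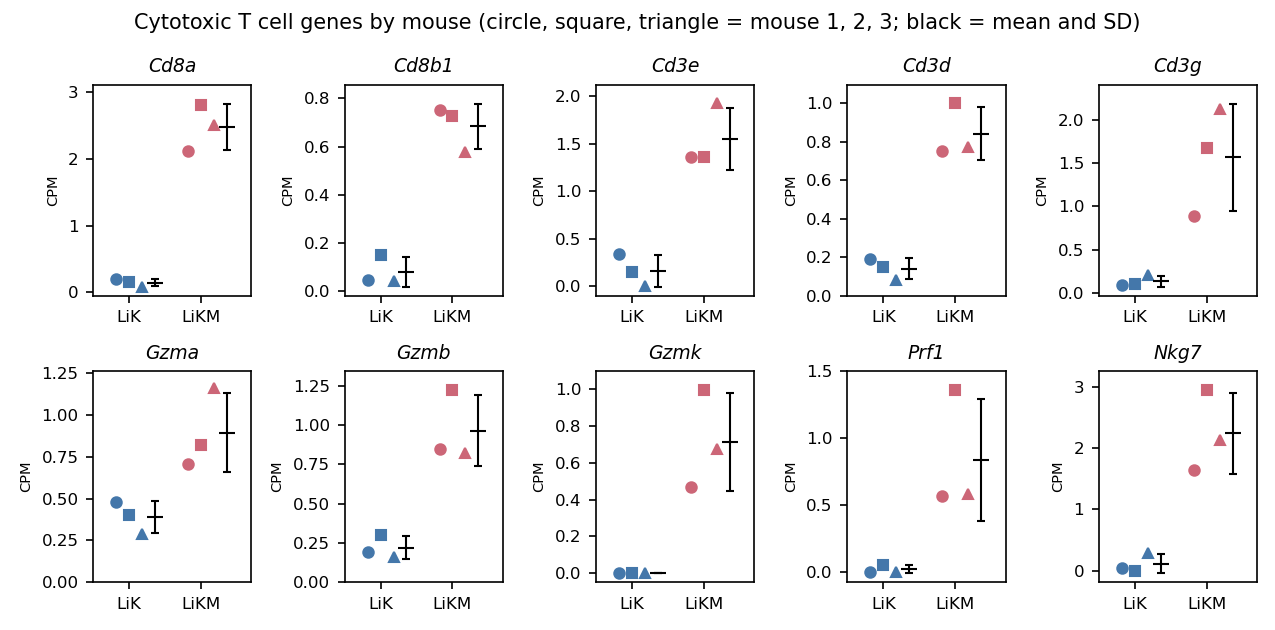
TMM-scaled CPM (vertical axes, linear, 1 scale per gene) of the 10 genes in each LiK (blue) and LiKM (red) mouse, with the mean and SD of each genotype in black. In every panel the 3 LiKM mice sit above the 3 LiK mice, by the smallest margin in Gzma.

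Among the co-receptor chains, Cd8a encodes the alpha chain of CD8, which binds class I molecules of the target cell and recruits the kinase LCK. Cd8a had 4, 3 and 2 counts in LiK 1, LiK 2 and LiK 3, against 45, 62 and 52 in the LiKM mice. The LiKM libraries were alike, and the groups were far apart. The log2 fold change was 4.10 (SE 0.37), with an edgeR adjusted p of 0.0063, the smallest of the 10 genes. The ratio of the summed counts, scaled by library size, was 17.9, with a 95% exact counting interval of 9.21 to 39.9.

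Cd8b1 encodes the beta chain, which pairs with the alpha chain on conventional cytotoxic T cells and is missing from the dendritic and innate-like cells that carry CD8 alpha alone. It had 1, 3 and 1 counts in LiK against 16, 16 and 12 in LiKM. The groups did not overlap, and the 3 LiKM values lay within a narrow range. The log2 fold change was 3.06 (SE 0.51, edgeR adjusted p = 0.0248), and the ratio of summed counts was 8.93 (3.55 to 28.9). In LiKM, Cd8b1 gave 44 of 203 CD8 counts, a share of 21.7% with a 95% exact binomial interval of 16.2 to 28.0%. In LiK the share was 5 of 14 counts, or 35.7% (12.8 to 64.9%), an interval that holds the LiKM share. Here and below the intervals cover counting error only.

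The CD3 chains form the signalling part of every T cell receptor, in CD8 and CD4 T cells alike. The 3 genes neighbour each other on chromosome 9 in the GENCODE annotation of GRCm38, with Cd3d between Cd3g and Cd3e and no other coding gene among them, and an antisense model that has no row of its own overlaps Cd3e. Cd3e, the epsilon chain, had 7, 3 and 0 counts in LiK against 29, 30 and 40 in LiKM. LiK 1 was the high LiK library and LiK 3 had none, and all LiKM libraries lay above both. Its log2 fold change of 3.26 (SE 0.70) gave an edgeR adjusted p of 0.0426, close to the threshold.

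Cd3d, the delta chain, had 4, 3 and 2 counts in LiK against 16, 22 and 16 in LiKM. The log2 fold change of 2.54 (SE 0.42, edgeR adjusted p = 0.0233) was the smallest of the CD3 genes. Cd3g, the gamma chain, had 2, 2 and 5 counts in LiK against 19, 37 and 44 in LiKM, so LiKM 1 was the low library of its genotype. It rose by 3.45 (SE 0.51) on the log2 scale, with an edgeR adjusted p of 0.0197. The ratios of summed counts were 10.1 for Cd3e (5.24 to 21.6), 6.09 for Cd3d (2.98 to 14.0) and 11.3 for Cd3g (5.71 to 25.4), and their counting intervals overlap. The CD3 genes together gave 28 counts in LiK and 253 in LiKM.

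The CD8 counts divided by the CD3 counts came to 0.385, 0.750 and 0.429 in the LiK mice and 0.953, 0.876 and 0.640 in the LiKM mice. The ranges overlap, and each LiK ratio rests on 13 or fewer CD3 counts. Over a whole group, CD8 gave 33.3% of the CD8 and CD3 counts in LiK (95% exact binomial interval 19.6 to 49.5%) and 44.5% in LiKM (39.9 to 49.2%), and the intervals overlap.

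Among the killing genes with a LiK count, the ratios of summed counts ran from 2.31 for Gzma to 54.8 for Prf1. Prf1 encodes perforin, and Gzma, Gzmb and Gzmk encode serine proteases of the granule. Gzma and Gzmk lie close together on chromosome 13 with 1 other coding gene between them, Esm1, whose locus overlaps that of Gzmk on the opposite strand without shared exons. Gzmb belongs to a cluster of closely related granzymes whose reads could be split, but Gzmc, Gzmd, Gzme, Gzmf, Gzmg and Gzmn had 0 or 1 counts in every library.

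The sequences before the start sites of these genes are shown because the 4 granule genes differed in how far LiKM exceeded LiK, and Cd3d is shown as a receptor gene. Each is the 250 bases before the start site in RefSeq on GRCm38.p6, read 5′ to 3′ in the direction of the gene, and 9 of the 10 members had an entry, all but Cd8b1. The windows are chr13:113100982-113101231 (minus strand) for Gzma, chr14:56262335-56262584 (minus strand) for Gzmb, chr13:113180966-113181215 (minus strand) for Gzmk, chr10:61297586-61297835 (plus strand) for Prf1 and chr9:44981536-44981785 (plus strand) for Cd3d. The build of the deposited counts is not given in the sources used here, so these positions belong to RefSeq and not to the counts. Capitals mark matches, on either strand, to 6 sets of letters. The RUNX letters were TGTGGT and the T-box letters were AGGTGT. For ETS factors the letters searched were AGGAAGT, and for the E-box they were CAGGTG. The AP-1 letters searched were TGANTCA, and the last set was TATAAA of the TATA box.
Gzma: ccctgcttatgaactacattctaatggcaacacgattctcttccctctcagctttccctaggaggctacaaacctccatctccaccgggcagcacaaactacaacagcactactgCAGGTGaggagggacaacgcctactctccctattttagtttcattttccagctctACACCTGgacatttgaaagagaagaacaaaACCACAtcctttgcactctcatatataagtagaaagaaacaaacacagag
Gzmb: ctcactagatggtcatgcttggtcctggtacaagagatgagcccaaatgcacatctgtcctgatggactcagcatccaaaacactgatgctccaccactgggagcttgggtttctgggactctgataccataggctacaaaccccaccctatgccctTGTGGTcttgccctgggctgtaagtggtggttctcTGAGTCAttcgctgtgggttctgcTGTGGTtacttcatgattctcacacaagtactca
Gzmk: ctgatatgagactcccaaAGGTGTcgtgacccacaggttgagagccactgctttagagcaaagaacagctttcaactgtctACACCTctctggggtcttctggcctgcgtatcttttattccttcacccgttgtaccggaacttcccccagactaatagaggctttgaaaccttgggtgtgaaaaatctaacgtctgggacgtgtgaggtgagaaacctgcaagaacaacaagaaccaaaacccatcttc
Prf1: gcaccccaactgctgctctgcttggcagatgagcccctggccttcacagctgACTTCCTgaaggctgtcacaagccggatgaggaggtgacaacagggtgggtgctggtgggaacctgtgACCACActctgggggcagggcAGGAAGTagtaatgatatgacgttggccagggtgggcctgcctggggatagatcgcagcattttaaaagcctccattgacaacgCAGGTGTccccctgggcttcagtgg
Cd3d: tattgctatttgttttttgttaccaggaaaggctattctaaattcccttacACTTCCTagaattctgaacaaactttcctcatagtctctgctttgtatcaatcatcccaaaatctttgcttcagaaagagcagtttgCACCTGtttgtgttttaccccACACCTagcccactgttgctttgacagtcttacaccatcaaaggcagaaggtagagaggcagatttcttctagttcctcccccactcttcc

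The T-box letters, the core of sites bound by the factors that Tbx21 and Eomes encode, stood in 7 of the 9 windows, all but those of Cd8a and Gzmb, and in 11.8% of all 32851 windows of that length. In Cd3g, Gzma and Prf1 the T-box match shared bases with an E-box match. The RUNX letters were in 4 of 9 windows, those of Gzma, Gzmb, Prf1 and Nkg7, against 14% of all windows, and Gzmb held 2 such matches. The ETS letters were in 3 of 9 (7.69% of all), the E-box in 4 of 9 (17.2%), the AP-1 letters in Gzmb alone (6.75%) and the TATA letters in 0 of 9 (12.4%). These are matches of letters and not measured binding, and Gzma, which was not called, and Gzmk, which had no LiK count, both held T-box letters.

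Gzmk, a granzyme of tryptase-like activity found in memory CD8 T cells, had 0 counts in each LiK library against 10, 22 and 14 in LiKM. Against a floor of 3 counts over the LiK group, it was at least 15.6-fold higher in LiKM. The exact counting interval that the other members are given with has a lower limit of 12.2 for Gzmk, and no upper limit. Esm1, the overlapping gene, had 30, 70 and 89 counts in LiK against 19, 15 and 14 in LiKM, the opposite direction. The edgeR adjusted p of Gzmk was 0.0256, and the fitted fold change of such a gene is set by the prior count and is not given as a size.

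Prf1 was almost as scarce in LiK. It had 0, 1 and 0 counts there and 12, 30 and 12 in LiKM, with LiKM 2 high. The ratio of summed counts was 54.8, with a counting interval from 9.43 to 2204, and the edgeR adjusted p was 0.0246. Perforin transcripts were thus detected in 1 of 3 LiK livers and in all 3 LiKM livers.

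Gzmb, which starts apoptosis in the target by cleaving after aspartate, was detected in every mouse. It had 4, 6 and 4 counts in LiK against 18, 27 and 17 in LiKM, a log2 fold change of 2.12 (SE 0.39, edgeR adjusted p = 0.0305). The summed counts stood in a ratio of 4.49 (2.49 to 8.69).

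Gzma was the best detected member in LiK. This tryptase-like granzyme had 10, 8 and 7 counts in LiK against 15, 18 and 24 in LiKM, a log2 fold change of 1.19 (SE 0.37) that did not pass the threshold (edgeR adjusted p = 0.111). The groups did not overlap, but the ratio of summed counts was 2.31 (1.42 to 3.87), the smallest of the 9 members with a LiK count. That interval lies below those of Cd8a, Cd3e, Cd3g, Prf1 and Nkg7.

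The granzyme make-up differed between the genotypes, a comparison chosen after the counts were seen and given without a test. Gzma was 71.4%, 57.1% and 63.6% of the Gzma, Gzmb and Gzmk counts in LiK 1, LiK 2 and LiK 3, and 34.9%, 26.9% and 43.6% in LiKM 1, LiKM 2 and LiKM 3. Over a whole group, Gzma gave 25 of 39 counts in LiK (64.1%, 95% exact binomial interval 47.2 to 78.8%) and 57 of 165 in LiKM (34.5%, 27.3 to 42.3%). Gzmb had nearly the same share in both, 35.9% (21.2 to 52.8%) and 37.6% (30.2 to 45.4%). Gzmk was 27.9% (21.2 to 35.4%) of the LiKM counts and 0 of 39 in LiK.

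**Figure D2:**
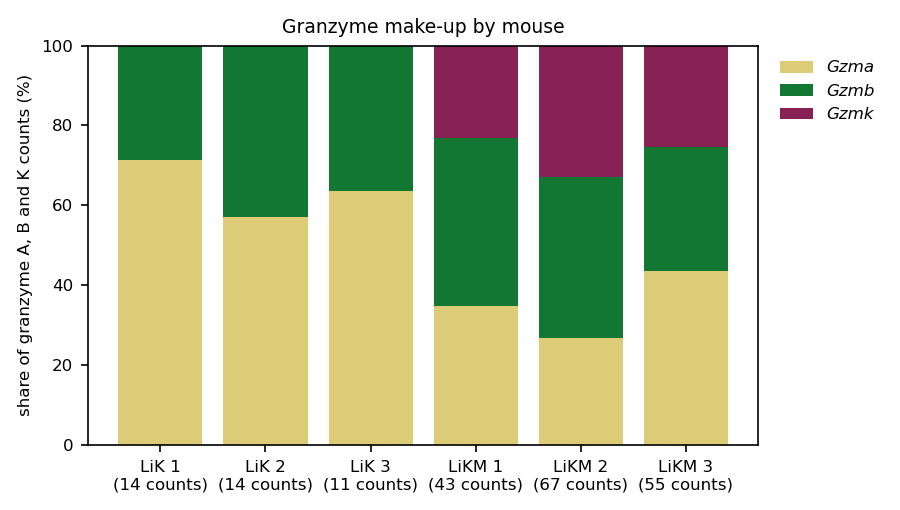
Share in percent of Gzma, Gzmb and Gzmk among the counts of these 3 granzymes in each mouse, with the number of counts under each bar. Gzma takes 57.1 to 71.4% in the LiK mice and 26.9 to 43.6% in the LiKM mice, and Gzmk appears in LiKM alone.

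Nkg7 encodes a granule membrane protein of T and natural killer cells that is needed for granule release. It had 1, 0 and 7 counts in LiK against 35, 65 and 44 in LiKM. LiK 3 held most of the LiK counts, unlike for Cd8a, Cd8b1, Cd3e, Cd3d, Gzma and Gzmb, which had their lowest CPM there. The log2 fold change was 4.15 (SE 0.71, edgeR adjusted p = 0.0251), and the ratio of summed counts was 18.3 (9.03 to 43.1), the nearest to that of Cd8a.

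**Figure D3:**
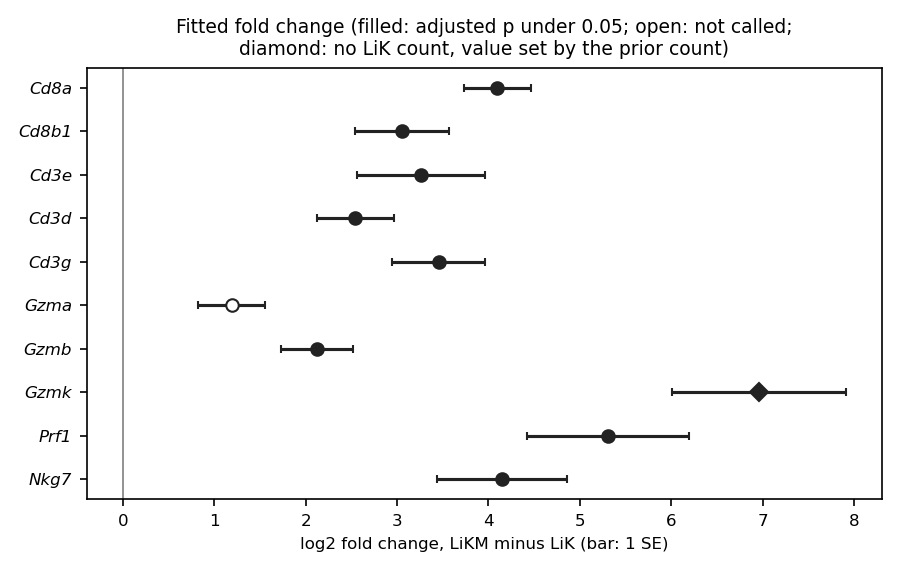
Fitted log2 fold change of LiKM over LiK (horizontal axis) with its standard error for each of the 10 genes, filled where the adjusted p was under 0.05. Gzma (1.19) is the open circle, and Gzmk is drawn as a diamond because it had no LiK count.

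Levels between genes were compared per kilobase of exon, with lengths from GENCODE M21, which may not be the annotation behind the counts. In LiKM, Nkg7 stood highest at 2.45 ± 0.722 CPM per kb, followed by Gzma (0.888 ± 0.234), Cd8a (0.681 ± 0.0963) and Gzmb (0.671 ± 0.158). Gzmk, Cd3g, Cd3d, Cd8b1, Cd3e and Prf1 followed between 0.514 and 0.323 CPM per kb. Nkg7 exceeded Gzma by more than either SD, Cd8b1 exceeded Cd3e by about 1 SD, and the other neighbours in that order differed by less than the larger SD of the pair. In LiK the order was another, with Gzma first at 0.388 ± 0.0971 CPM per kb, then Gzmb at 0.153 ± 0.0507 and Nkg7 at 0.122 ± 0.168, and the rest at 0.0782 or less.

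Within LiKM the mice were not ranked alike by all members. LiKM 1 had the lowest CPM in 7 of the 10 genes, and LiKM 2 had the highest in 6, among them Prf1, Gzmk and Nkg7. LiKM 3 was highest for Cd3e, Cd3g and Gzma. Killing genes (Gzma, Gzmb, Gzmk, Prf1 and Nkg7) over CD3 genes came to 1.41, 1.82 and 1.11 counts in LiKM 1, LiKM 2 and LiKM 3, and to 1.15, 1.88 and 2.57 in the LiK mice, so the ranges overlap.

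The calls depended on which mouse was left out. Each mouse was left out in turn, and counts over these 6 fits are given throughout in 1 order of the mouse left out: LiK 1, LiK 2, LiK 3, LiKM 1, LiKM 2, LiKM 3. In that order 1, 0, 3, 5, 1 and 8 members were called higher, against 9 with all mice. Over all genes the same fits called 31, 19, 311, 376, 47 and 626, against 802. Cd8a was called in 5 of the 6 fits and missed the threshold without LiK 2 (edgeR adjusted p = 0.0551). Cd3g and Nkg7 were called in 3 fits each, without LiK 3, LiKM 1 or LiKM 3. Gzmk and Prf1 were called in 2, without LiKM 1 or LiKM 3, and Cd8b1, Cd3d and Gzmb in 1, without LiKM 3. Cd3e was called in 0 of the 6 (edgeR adjusted p from 0.0522 to 0.147). In a test against a change of 1.5-fold, 2 of the 10 genes passed, Cd8a and Cd3g, beside 0.85% of all genes.

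**Figure D4:**
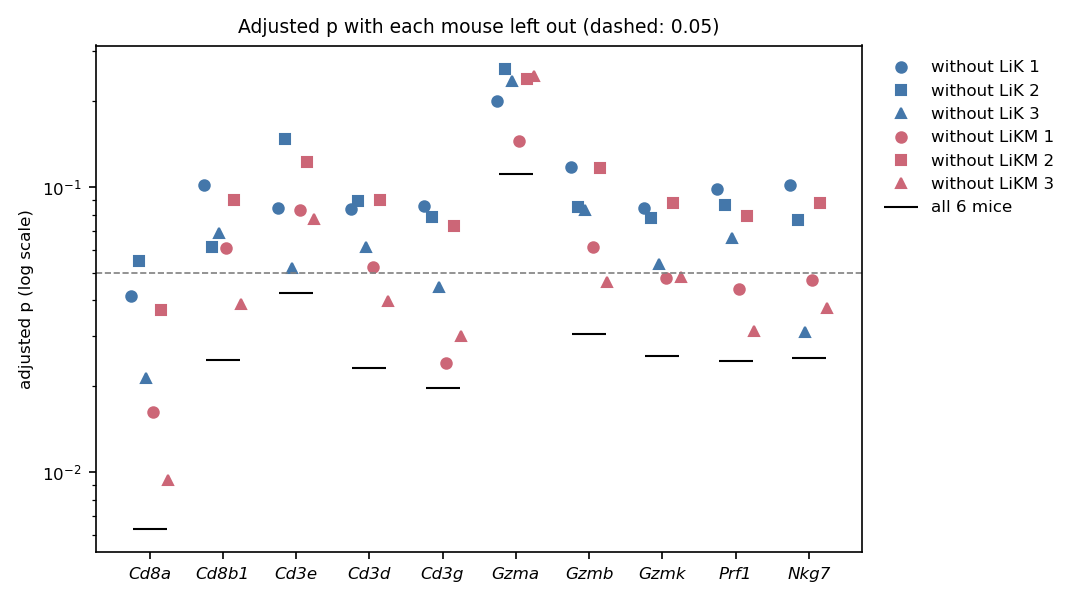
Adjusted p of each gene (vertical axis, log scale) with 1 mouse left out, coloured by genotype and shaped by mouse, and with all 6 mice as a black bar. Most points without LiK 1, LiK 2 or LiKM 2 lie above the dashed line at 0.05, and Cd8a lies below it in 5 of 6 fits.

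Partners of the T cell receptor moved in part with the members. Of 28 genes of receptor signalling, all with a row, 20 were tested, 9 rose, 0 fell and 11 were not called, with a median log2 fold change of 1.54 beside −0.00345 over all genes tested. Over all genes tested edgeR called 5.11% higher, the share to set beside this list and those below. DESeq2 called 15 of the 28 genes higher and 1 lower, Trat1. In this list and those of effectors, regulators, homing genes, chemokines and markers of natural killer and helper cells, described below, 0 tested genes were lower at an unadjusted p under 0.05. Lck, the kinase that CD8 brings to the receptor, had 5, 8 and 7 counts in LiK against 34, 66 and 63 in LiKM, a log2 fold change of 3.02 (SE 0.39, edgeR adjusted p = 0.0148). Cd247, the zeta chain, had 2, 3 and 4 counts against 13, 19 and 14 and rose by 2.33 (SE 0.40, edgeR adjusted p = 0.0251), and the inhibitory receptor gene Cd5 rose by 2.77 (SE 0.46, edgeR adjusted p = 0.0246). Sh2d2a, which encodes an adaptor that binds LCK, rose by 2.81 (SE 0.41, edgeR adjusted p = 0.0197). Lck and Sh2d2a were not called without LiK 1, LiK 2 or LiKM 2, Cd5 in addition not without LiK 3, and Cd247 was called only without LiKM 3. Over the fits with a mouse left out, 0, 0, 4, 4, 0 and 6 of these genes were called higher.

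Not every gene of the receptor pathway followed. Zap70, the kinase that docks on phosphorylated CD3 chains, averaged 7.30 ± 1.72 CPM over the LiK mice and 7.92 ± 0.381 CPM over the LiKM mice (SD, n = 3 each), with a log2 fold change of 0.12 (SE 0.20, edgeR adjusted p = 0.759). Plcg1 (−0.09, SE 0.14) and Fyn (0.54, SE 0.15), which many cell types express, were not called either. Zap70 had 190, 114 and 171 counts in LiK, where the CD3 genes together gave 28. Which cells the Zap70 reads came from was not tested. Ptprc, the CD45 phosphatase of all white blood cells, averaged 8.27 ± 0.561 CPM against 20.4 ± 2.74 CPM and rose (log2 difference 1.30, SE 0.14, edgeR adjusted p = 0.0107), but not without LiK 1, LiK 2 or LiKM 2. The constant regions of the receptor chains matched no row of the table by symbol and are not analysed here.

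Other effector genes of cytotoxic cells were mixed. Of 28 such genes, 14 were tested, 5 rose, 0 fell and 9 were not called, with a median of 0.87. Ccl5, a chemokine that activated T and natural killer cells store and release, rose by 4.72 (SE 0.34), from 8, 7 and 6 counts to 125, 209 and 223 (edgeR adjusted p = 0.00482), and was called in all 6 fits without a library. The chemokine gene Ccl3 rose by 2.80 (SE 0.53) and Slamf7, a receptor of activated lymphocytes, by 2.21 (SE 0.45), with edgeR adjusted p of 0.0316 and 0.0377. Srgn, whose product packs granzymes in the granule, rose by 1.10 (SE 0.19, edgeR adjusted p = 0.0251). Ccl3 and Srgn were called only without LiKM 3, and Slamf7 in 0 of the 6 fits.

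Fasl, the death ligand of cytotoxic cells, was too scarce for the filter and had 0, 0 and 1 counts in LiK against 9, 17 and 10 in LiKM. Ifng, the main cytokine of these cells, stayed near 0 in both, with 4, 0 and 1 counts in LiK against 3, 2 and 1 in LiKM. Gzmm, a further granzyme, had 3, 2 and 15 counts and 5, 6 and 5, so the groups overlapped. Lamp1 (0.04, SE 0.12) and Ctsc (−0.23, SE 0.11), which most cells express, were not called. With a mouse left out, the fits called 1, 1, 1, 3, 1 and 3 of the effector genes.

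Of 21 regulators of the cytotoxic lineage with a row, 16 passed the filter and 5 did not. Eomes, a T-box factor of effector and memory CD8 T cells and of natural killer cells, had 0 counts in each LiK library against 9, 12 and 17 in LiKM. Runx3, which sets the CD8 lineage, had 1, 2 and 6 counts against 7, 30 and 30, and Tbx21, the T-box factor T-bet, had 5, 3 and 2 against 7, 6 and 12. These 3 were among those not tested, and each had its LiKM libraries above its LiK libraries, which held for 17.8% of all genes tested. The nearest LiK and LiKM libraries were 5 and 6 counts for Tbx21, and 6 and 7 counts for Runx3. Of 16 regulators tested, 2 rose and 0 fell, namely Ikzf3 (2.30, SE 0.46, edgeR adjusted p = 0.036) and Ets1 (0.66, SE 0.15, edgeR adjusted p = 0.0466), with a median of 0.68. Ikzf3 was called only without LiKM 1 and Ets1 only without LiK 3, and the fits with a mouse left out called 0, 0, 1, 2, 0 and 0 regulators.

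Markers of natural killer cells were scarce, and some had LiKM above LiK while others overlapped. Ncr1, which encodes NKp46, had 1, 2 and 1 counts in LiK and the same 1, 2 and 1 in LiKM. Klrb1c, which encodes NK1.1, had 3, 2 and 2 counts in LiK against 1, 12 and 1 in LiKM, so LiKM 2 alone was high. Klra1 and Klra3 had no count in any library. Of 23 natural killer markers with a row, 3 passed the filter, all with positive fold changes and a median of 2.29, and 20 did not. Of the 23, 7 had all LiKM libraries above the LiK libraries, which held for 17.8% of all genes tested. Of those below the filter, Klrd1 had 2, 4 and 4 counts in LiK against 5, 14 and 19 in LiKM, Itga2 had 3, 4 and 0 against 8, 12 and 13, and Txk had 1, 0 and 1 against 4, 5 and 14. Il2rb, a cytokine receptor that T cells also carry, rose by 2.31 (SE 0.29, edgeR adjusted p = 0.0135) and Cd244 by 2.29 (SE 0.50, edgeR adjusted p = 0.0443), while Klrk1 was not called (0.70, SE 0.30). The summed level of the list was 2.46 to 3.36 CPM in LiK and 7.33 to 11.5 CPM in LiKM, and the part of natural killer cells in the members' values was not tested. Il2rb was not called without LiK 1, LiK 2 or LiKM 2 and Cd244 in 0 of the 6 fits, and those fits called 0, 0, 1, 1, 0 and 1 of the markers.

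**Figure D5:**
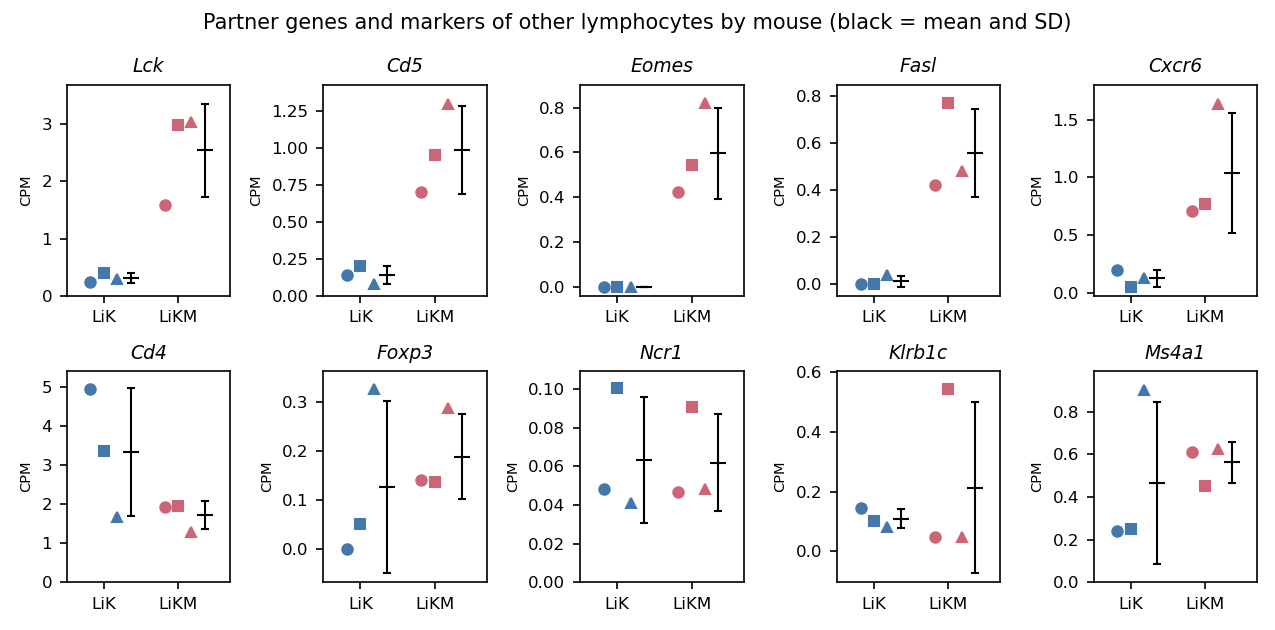
TMM-scaled CPM (vertical axes, linear, 1 scale per gene) by mouse for 5 genes of cytotoxic T cells or their partners (upper row) and 5 markers of other lymphocytes (lower row), with mean and SD in black. The LiKM mice lie above the LiK mice in the upper row and overlap with them in the lower row. The genes were picked for display, and others of the same lists went otherwise. Zap70 and Ifng, not shown, overlap, and Il2rb, Klrd1 and Tnfrsf18, not shown, have the LiKM mice above the LiK mice.

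Among tested markers of helper and regulatory T cells and of B cells, edgeR called 1. Cd4, which liver macrophages of some kinds also express, had 103, 67 and 41 counts in LiK against 41, 43 and 27 in LiKM, which was not called (log2 fold change −0.94, SE 0.41, edgeR adjusted p = 0.234). Foxp3, the factor of regulatory T cells, had 0, 1 and 8 counts in LiK against 3, 3 and 6 in LiKM. Of 6 helper and regulatory T cell markers tested, 1 rose, Tnfrsf18 (2.26, SE 0.43, edgeR adjusted p = 0.0334), which activated CD8 T cells and other cells also express and which was called without LiKM 3 and in no other of the 6 fits. The list median was 0.04, and the 6 fits called 0, 0, 0, 1, 0 and 1 of its genes.

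Of 11 B cell markers tested, 0 were called by edgeR, DESeq2 or limma-voom, 2 were higher at an unadjusted p under 0.05, and the median was 0.48. Without LiK 3, edgeR called 1 of them. Ms4a1, which encodes the B cell surface protein CD20, had 5, 5 and 22 counts in LiK against 13, 10 and 13 in LiKM. LiK 3 had the highest B cell level of its genotype, with the summed list at 5.92 to 16.7 CPM in LiK and 14.7 to 17.9 CPM in LiKM. Of the members, Nkg7 and Cd3g were highest of the LiK mice in LiK 3, and the part of B cells or other lymphocytes in those values was not tested.

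Other cells that can express a member were checked by their markers. Dendritic cells of the cross-presenting kind can carry CD8 alpha. Of their markers, Xcr1 had 10, 8 and 13 counts in LiK against 17, 22 and 30 in LiKM without overlap and was not called (1.18, edgeR adjusted p = 0.10), and Clec9a had 111, 106 and 91 counts in LiK against 70, 117 and 68 in LiKM with overlap (−0.28 on the log2 scale, SE 0.27). Of 12 dendritic cell markers tested, 1 rose, beside 5.11% of all genes called higher. It was Itgax (1.92, SE 0.40, edgeR adjusted p = 0.0398), which no fit with a mouse left out called. The list had a median of 0.90, with 7 of the 12 higher at an unadjusted p under 0.05. All LiKM libraries lay above the LiK libraries in 8, which held for 17.8% of all genes tested. DESeq2 called 3 higher and limma-voom 4. The summed level of the list was 152 to 172 CPM in LiK and 209 to 225 CPM in LiKM. Most of that came from Bst2, which averaged 141 ± 10.7 CPM in LiK and 187 ± 13.3 CPM in LiKM (SD, n = 3 each). Bst2 was not called (log2 fold change 0.40, SE 0.11, edgeR adjusted p = 0.084). Mast cells can express granzyme B. Their markers Fcer1a and Tpsab1 had no count in any library, while Cpa3, Mcpt4 and Cma1 had 2 counts each and Tpsb2 had 3 in LiKM 1 and none in LiKM 2 or LiKM 3. Kit, which other cells of the liver also express, had 100, 114 and 96 counts in LiK against 242, 157 and 188 in LiKM without overlap. Of 11 mast cell and basophil markers, 2 were tested and edgeR called 0, with 1 higher at an unadjusted p under 0.05 and 1 called by DESeq2. Red cell and neutrophil markers varied among the mice and summed to 58.6 to 154 CPM in LiK and 125 to 158 CPM in LiKM, and 0 of 7 tested markers were called by edgeR, DESeq2 or limma-voom, with 1 higher at an unadjusted p under 0.05. The part of dendritic cells, mast cells or blood in the members' values was not tested.

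Genes that attract T cells were higher in LiKM in most cases. Of 7 chemokine genes tested, 6 rose and 0 fell, beside 5.11% of all genes called higher, with a median of 2.33. Ccl3, Ccl4 and Ccl5, all among the rises, are also counted in the list of effector genes above. Cxcl9, a ligand of the T cell receptor for chemokines CXCR3, had 282, 97 and 274 counts in LiK against 611, 1148 and 713 in LiKM (log2 fold change 1.95, SE 0.39, edgeR adjusted p = 0.0353), and Cxcl10, another ligand, rose by 2.33 (SE 0.36, edgeR adjusted p = 0.0211). Cxcr3 itself was below the filter, with 2, 1 and 7 counts in LiK against 8, 14 and 19 in LiKM. Cxcr6, a receptor of liver-resident T cells, had 4, 1 and 3 counts against 15, 17 and 34 and rose by 3.02 (SE 0.58, edgeR adjusted p = 0.0332). Cxcl9 and Cxcr6 were called in 0 of the 6 fits without a library and Cxcl10 in 2, without LiKM 1 or LiKM 3. The fits with a mouse left out called 1, 1, 1, 4, 1 and 3 of the chemokine genes.

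The genes whose pattern over the 6 libraries lay nearest to the members' mean were found by the Euclidean distance of log2 CPM after each gene's own mean was removed. Members were passed over in that search, and unnamed gene models in all searches. The 8 nearest were Tnfrsf10b (distance 0.367), Slc16a5 (0.50), Ccdc120 (0.53), Casc5 (0.586), Orc1 (0.601), Lck (0.605), H2-Eb1 (0.607) and Gipc2 (0.622). Lck is a T cell gene, Tnfrsf10b encodes a death receptor and Orc1 a protein of DNA replication. For Cd8a alone, in a search that included the other members, the nearest were Gzmk (0.817), the protease gene Adam8 (0.843) and Tnfrsf10b (1.02).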

How the data were processed

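Per the labels' protocols, libraries came from total liver RNA through a stranded messenger RNA kit. The authors deposited raw counts of reads per gene symbol in 1 table, and per the submitters' processing notes featureCounts and FastQC 0.11.7 were used. No aligner, build, annotation or strand setting is given in the sources used here, so reads of antisense or overlapping genes may not be told apart. Column names matched the animal codes in the titles, and 0 columns were left unused. Nothing in the labels says more on the animals' origin. The p-values set the genotype difference against the spread between these mice. Genotype cannot be told apart from any difference in sex, litter or day of collection between the groups.

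Counts were used as deposited in edgeR 4.0.16 (R 4.3.3), with its default filter (count 10 in 3 libraries, total 15), TMM, and the quasi-likelihood test with genotype as the only term. Of 26608 symbols, 13537 were tested. Calls have a Benjamini-Hochberg adjusted p under 0.05 over all of them. Standard errors were derived from the fold change and its F statistic. Ratios of summed counts have exact 95% intervals. Log2 CPM for distances used a prior count of 2. Of 239 list memberships, 228 matched a row, 3 through an older symbol. Some genes belong to several lists. The members, the lists and the genes named (fixed genes, and per list up to 4 called with the smallest adjusted p and up to 3 not called with the highest level) were chosen with earlier results of these data known. Esm1, Klra1, Klra3, Gzmm, Gzmc, Gzmd, Gzme, Gzmf, Gzmg, Gzmn, Fcer1a, Tpsab1, Cpa3, Mcpt4, Cma1, Tpsb2, Klrd1, Itga2, Txk, Xcr1 and the genes of the closing section outside that rule were picked with their values in view. The code was tested on simulated data. Alternatives used other scalings, DESeq2 1.42.0, limma-voom (limma 3.58.1), other filters, robust shrinkage, a test against 1.5-fold (for single genes and lists chosen after seeing the data), the replicate number as a block, and each library left out. A few named genes and an allele of the design are not reported here.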

Additional observations from a re-analysis of the deposited data

How the results depend on the processing

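Over the scalings, tests and filters other than leaving out a library, 84 of 93 member fold changes kept their direction and side of the threshold, and the other 9 kept their direction and missed the threshold. With each library left out, 24 of 60 kept their side and 36 lost the call, all with the same direction, which groups that do not overlap all but fix. The members called higher numbered 3 where a gene needed 1 CPM in 3 libraries, which left only Cd8a, Cd3e and Nkg7 tested, 2 (Cd8a and Cd3g) in the test against 1.5-fold, and between 0 and 8 with a library left out. All genes called numbered 1545 by DESeq2, 1323 by limma-voom with sample weights, 127 in the test against 1.5-fold, and between 19 and 626 with a library left out. Both DESeq2 and limma-voom called 9 members. Without scaling factors the median of all genes rose from −0.00345 to 0.155 on the log2 scale, and Gzma stayed uncalled at 1.35 (edgeR adjusted p = 0.0657). Of the list counts, 34 of 280 moved by over 1.5 times under other settings and 52 of 168 with a library left out, and the cause was not tested.

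The replicate number as a block gave 7 members called and 835 genes, with Cd3e (edgeR adjusted p = 0.0702) and Gzmk (edgeR adjusted p = 0.0508) lost. Deviations of same-numbered libraries correlated at 0.267, −0.000281 and 0.127 across genes, and those of differently numbered libraries between −0.197 and 0.0459. The values 0.267 and 0.127 lay above all of the latter, but genes are not independent. No label says that the number marks a shared litter or day, so the numbers were not taken as a pairing.

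Ifng had 4, 0 and 1 counts in LiK against 3, 2 and 1 in LiKM, and Ncr1 had 1, 2 and 1 in both. Both genes were below the main filter and have no adjusted p there. Gzmk, with 0 counts in each LiK library against 10, 22 and 14 in LiKM, passed that filter and was called (edgeR adjusted p = 0.0256). Ifng and Ncr1 showed no rise of that size. At 0 to 4 counts per library a smaller difference between the genotypes was not resolved.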

Other observations

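Genes of lymphocyte traffic and adhesion were higher in LiKM in many cases. Of 18 tested genes of homing, memory and residency, 10 rose and 0 fell in edgeR's test, beside 5.11% of all genes called higher. The median log2 fold change of the list was 1.15. The integrin genes Itgb2, shared by all white blood cells, and Itgb7, whose product guides T cells to mucosa, rose by 1.36 (SE 0.18) and 1.40 (SE 0.21), the selectin ligand gene Selplg by 1.43 (SE 0.24) and Cd44, a marker of activated T cells that other cells share, by 1.18 (SE 0.20). S1pr1, which lets T cells leave tissue and which endothelial cells also express, was not called (−0.14, SE 0.13), nor was Itga1 (0.16, SE 0.14). With a mouse left out, in the order used above, 0, 0, 3, 6, 0 and 6 of them were called. Itgb2 and Itgb7 were not called without LiK 1, LiK 2 or LiKM 2. Selplg was called only without LiKM 3, and Cd44 only without LiKM 1 or LiKM 3.

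Cytokines that sustain cytotoxic cells, and their receptors, held 2 rises and 0 falls among 12 tested genes, with a median of 0.70, while 5 were higher and 3 lower at an unadjusted p under 0.05. DESeq2 and limma-voom each called 5 higher and 1 lower, the latter Il15ra. The rises in edgeR were in Il2rb, given above, and in Il2rg, the chain shared by several interleukin receptors (1.18, SE 0.26, edgeR adjusted p = 0.0478), which was called in 0 of the 6 fits without a library. Il15, which maintains CD8 T cells and natural killer cells, had 20, 17 and 37 counts in LiK against 38, 46 and 28 in LiKM and was not called (0.64, SE 0.32). Il15ra, which presents interleukin 15 to those cells, had 875, 769 and 949 counts in LiK against 645, 568 and 406 in LiKM, which edgeR did not call (−0.66 on the log2 scale, SE 0.16, edgeR adjusted p = 0.0621), and the LiKM libraries all lay below the LiK libraries. Of 6 innate-like T cell markers tested, 0 were called by edgeR, DESeq2 or limma-voom, with 1 higher at an unadjusted p under 0.05 and a median of 0.09. Trat1, an adaptor of the T cell receptor, went against its list with 57, 33 and 1 counts in LiK against 0 in each LiKM library. It was below the filter with all libraries, and was called lower by DESeq2 (adjusted p = 0.0263) and by edgeR without LiK 3 (adjusted p = 0.0404).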
